A study of Rattus norvegicus with 9 samples.

Results

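Pressure overload of the adult rat left ventricle was examined in the 3 libraries titled TAC and the 3 titled Sham, 6 of the 9 RNA sequencing libraries of the series. TAC libraries come from the left ventricle of adult Sprague-Dawley rats after transverse aortic constriction, an operation that narrows the aorta and raises the load on the ventricle. Sham libraries come from adult Sprague-Dawley left ventricle after the operation without the constriction. No transgene or drug is named for either group, and the sources used here do not give the time between the operations and collection of the tissue. The remaining 3 libraries, of embryonic day 18 ventricle, served to estimate the spread between libraries and as a reference level. The labels do not say whether each adult library is a separate animal, so p-values measure only the spread between these libraries, which may be technical.

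A ventricle that pumps against a high pressure enlarges its muscle cells. Textbook accounts of this response describe the return of genes active in the fetal ventricle, among them the natriuretic peptides, atrial isoforms of contractile proteins and skeletal muscle actin. They also describe a shift of fuel use away from fatty acids, and growth of the connective tissue matrix.

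The natriuretic peptide genes Nppa and Nppb, the usual reporters of load, lie close together on chromosome 5, and in each replicate number the order of TAC and sham was the same for both. The 250 bases before each start site are therefore shown, from RefSeq on build GRCr8, plus strand, as chr5:163711934-163712183 for Nppa and chr5:163699758-163700007 for Nppb. Capitals mark matches on either strand to TGATAA or AGATAA, bound by GATA factors, to CATTCC, the MCAT element, and to TATAAA, the TATA box; none of these matches overlap.
Nppa: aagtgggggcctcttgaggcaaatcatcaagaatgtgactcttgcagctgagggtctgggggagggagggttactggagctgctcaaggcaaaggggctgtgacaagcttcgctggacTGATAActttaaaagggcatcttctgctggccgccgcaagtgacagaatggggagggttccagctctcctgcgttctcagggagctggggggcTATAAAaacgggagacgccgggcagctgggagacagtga
Nppb: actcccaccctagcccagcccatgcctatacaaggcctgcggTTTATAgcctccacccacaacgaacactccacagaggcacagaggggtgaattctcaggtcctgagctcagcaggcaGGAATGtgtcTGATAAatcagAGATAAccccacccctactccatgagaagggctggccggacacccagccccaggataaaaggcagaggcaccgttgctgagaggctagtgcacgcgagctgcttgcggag
The window of Nppa holds 1 GATA match and 1 TATA box match, and that of Nppb holds 2 GATA matches, 1 MCAT match and 1 TATA box match on the minus strand. Of 33469 windows of the same length, 16.9% hold a GATA match, 12.1% an MCAT match and 12.9% a TATA box match. These are matches of letters, not measured sites.

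The libraries of TAC were shallower than those of sham. The deposited confidence bounds imply 6.37 to 11.7 fragments (in units of 1e+06) in TAC and 11.9 to 21.6 in sham, and at the median locus tested 65.0 to 118 fragments in TAC against 114 to 208 in sham. Replicate 1 of each group differed from replicates 2 and 3: the first principal component of the 6 adult libraries (43.7% of the variance) separated it, and its shortest assembled feature was 43 nt against 63 nt in the others. Treating replicate 1 as a library batch was set in advance of the comparison. For the lists and many of the genes the differences within replicate 1 and within replicates 2 and 3 are given as well. Sham replicate 3 lay farthest out on the second component (18.3%). Of the cardiomyocyte markers, the 2 with a symbol and a measurable locus were abundant in all 6: Mb (myoglobin) stood between 18578 and 24800.2 and Actc1 (cardiac actin) between 20946 and 27134.

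Values below are rescaled FPKM, fragments per kilobase of transcript brought to a common scale between libraries. A difference is TAC minus sham on the log2(value + 1) scale, with its standard error, from a limma fit with the library batch as a covariate. A locus was called at a Benjamini-Hochberg adjusted p below 0.05 over all 13291 loci tested. Of these, 3 were called (0.0226%), 1 higher and 2 lower in TAC. At an unadjusted p below 0.05, 388 were higher (2.92%) and 358 lower (2.69%). All 3 TAC values lay above all 3 sham values at 583 loci (4.39%) and below them at 613 (4.61%). In pairs of the same number, TAC was higher in all 3 at 1703 loci (12.8%) and lower in all 3 at 1768 (13.3%). No member of the gene lists described next was called, so the lists are given by their values, the TAC libraries in the order 1 to 3 before the sham libraries in the same order. List medians are small beside the effect of single libraries: with 1 library left out at a time, the median took both signs in 19 of the 32 lists. In bulk tissue, fewer cells of a type and less RNA per cell cannot be told apart.

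Among the hypertrophy and fetal genes, 16 of 30 listed were measured, and sarcolipin and the atrial myosin light chain stood farthest above sham. The difference was positive for 15 of 16, with a median of 0.21 against -0.01 over all loci, and 2 had an unadjusted p below 0.05, both higher (2.92% over all loci). In 3 every TAC library lay above every sham library (Sln, Myl7 and Flnc; 4.39% over all loci). Myh6, Myh7 and Atp2a2 have no symbol in the files and are not analysed here. The median was 0.05 within replicate 1, where 10 of 16 differences were positive, and 0.33 within replicates 2 and 3, where 13 were. With 1 library left out it was lowest without TAC replicate 3 (0.10, 12 of 16 positive) and highest without sham replicate 1 (0.43), and without TAC replicate 1 11 of 16 were positive.

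Sln encodes sarcolipin, a small membrane protein that inhibits the calcium pump of the sarcoplasmic reticulum and is abundant in atrium (rn4 chromosome 8, 57314470 to 57318717). It measured 97.0, 24.4 and 22.8 in TAC replicates 1 to 3 and 11.2, 3.92 and 1.23 in sham replicates 1 to 3. The lowest TAC library was above the highest sham library, and TAC was higher in 3 of 3 pairs of the same number (12.8% over all loci). The difference was 2.93 ± 0.40, with an unadjusted p of 7.18e-05 and a limma Benjamini-Hochberg adjusted p of 0.149, so the locus was not called. It was 3.01 within replicate 1 and 2.89 within replicates 2 and 3. With a pseudocount of 5 in place of 1 the limma adjusted p was 0.0228, and over the alternatives it ran from 0.0115 to 0.999. The fetal level was low, at 13.8, 0.240 and 1.07.

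Myl7, the atrial regulatory light chain of myosin (rn4 chromosome 14, 86567234 to 86570116), measured 1052, 145 and 104 in TAC and 73.9, 79.3 and 1.20 in sham. The groups did not overlap, but TAC replicate 1 was far above the other TAC libraries and sham replicate 3 far below the other sham libraries. The difference was 3.41 ± 1.19 (limma adjusted p = 0.843), and without sham replicate 3 it was 1.90 (adjusted p = 0.988). Fetal libraries measured 488, 607 and 299.

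Atrial tissue was looked for with 16 markers of atrium and conduction system, of which 8 were measured, Sln, Myl7 and Nppa among them. Their summed level ran from 553 to 3013 in TAC and from 263 to 749.7 in sham, with overlap. The 5 markers that are not also on the hypertrophy list (Gja5, Nr2f2, Tbx3, Kcnj5 and Dkk3) summed to 112 to 133 in TAC and 111 to 130.5 in sham. Of these 5, 2 were positive and 3 negative, and none was at 0 in an adult library. The part of atrial tissue in the Sln and Myl7 values was not tested.

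Nppa encodes atrial natriuretic peptide, a hormone that promotes salt loss (rn4 chromosome 5, 165074346 to 165075827). It measured 1752, 250.5 and 519 in TAC and 534, 417 and 150.2 in sham. TAC was above sham in replicates 1 and 3 and below it in replicate 2, so that the groups overlapped. The difference was 0.92 ± 0.48 (limma adjusted p = 0.851), 1.71 within replicate 1 and 0.52 within replicates 2 and 3. Nppb, brain natriuretic peptide (rn4 chromosome 5, 165062304 to 165063650), had the same order: 605, 366 and 734 in TAC and 311, 592 and 173 in sham, a difference of 0.78 ± 0.45 (adjusted p = 0.857). Without TAC replicate 1 the Nppa difference was 0.48, and without sham replicate 3 the Nppb difference was 0.31. Fetal levels were 1899.8, 1349 and 886 for Nppa and 404, 549.6 and 365 for Nppb.

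The remaining hypertrophy genes differed less than their libraries did among themselves. Acta1, skeletal muscle alpha-actin, measured 2309.9, 1019 and 1862 in TAC and 2557, 926 and 1573 in sham (0.08 ± 0.57). Its fetal values, whose spread enters the standard error, were 3061, 10095 and 3072. Ankrd1, a stretch-responsive protein of the I-band, measured 2118, 1814 and 3581 against 2069, 2324 and 2189 (0.13 ± 0.26); TAC replicate 3 alone stood above every sham library. Flnc, muscle filamin, had 82.9, 82.2 and 108 in TAC and 82.2, 78.9 and 72.2 in sham (0.22 ± 0.17), and its lowest TAC and highest sham values were both 82.2.

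Cryab, the small heat shock protein alphaB-crystallin, was lower than sham in replicate 1 (-0.49) and higher in replicates 2 and 3 (0.88). Thbs4, a thrombospondin of the matrix, was lower than sham in replicates 1 and 2 (-0.89 and -0.26) and higher in replicate 3 (2.28). Uchl1, a ubiquitin hydrolase, was low in both groups, at 5.65, 1.62 and 2.52 in TAC and 4.57, 0.966 and 0.0728 in sham (0.79 ± 0.37). It was higher in TAC in 3 of 3 pairs (12.8% over all loci), by 0.26 within replicate 1 and 1.06 within replicates 2 and 3. Rcan1, a target and inhibitor of calcineurin (0.01 ± 0.23), Des (desmin, -0.13 ± 0.23), Vim (vimentin, 0.10 ± 0.14), Myl9 (a smooth muscle light chain, 0.09 ± 0.24), Pdlim3 (a Z-disc protein, 0.20 ± 0.20) and Tnni1 (slow skeletal troponin I, 0.07 ± 0.68) lay within 1 standard error or little more of 0. Tnni1, whose fetal level is 2019, 2590.4 and 2774, was at 31.0, 2.26 and 1.71 in TAC and 18.6, 2.96 and 2.14 in sham: replicate 1 was the high library in both adult groups.

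**Figure D1:**
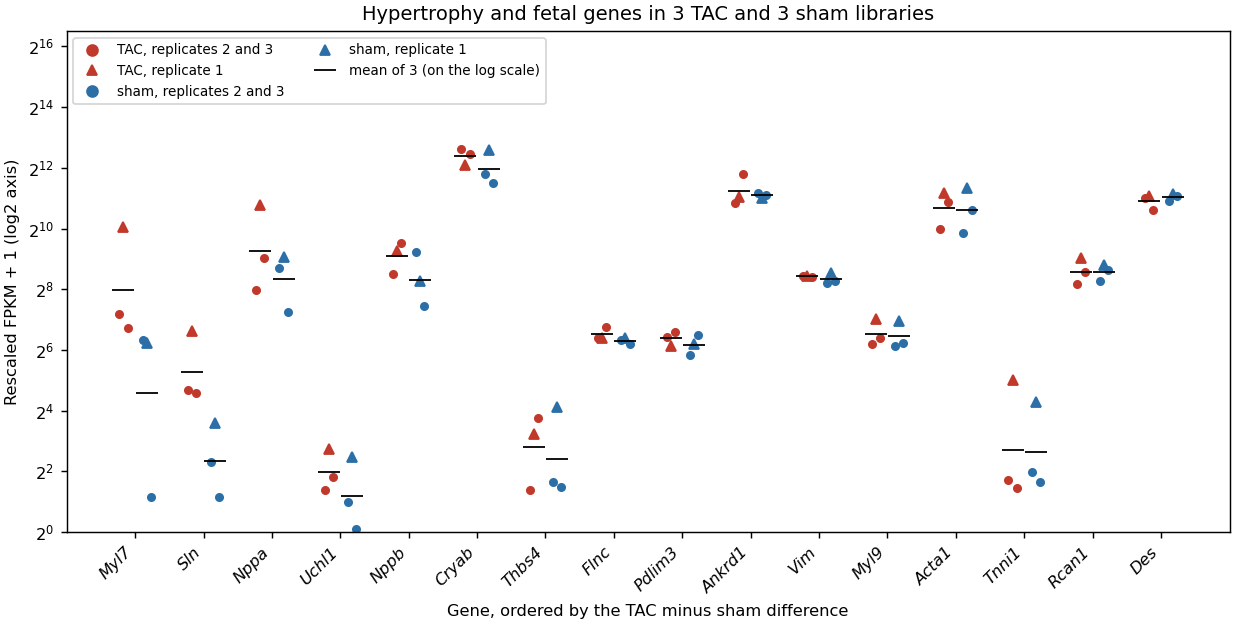
Rescaled FPKM + 1 on a log2 axis for the 16 measured hypertrophy and fetal genes, with 3 TAC (red) and 3 sham (blue) libraries, replicate 1 as a triangle and the mean on the log scale as a bar. Sln, Myl7 and Flnc are the genes in which every TAC library lies above every sham library, and for Nppa and Nppb the groups overlap.

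Genes of calcium handling were measured for 8 of 28 listed. The median was 0.22 (0.10 without TAC replicate 1), 7 of 8 differences were positive, none had an unadjusted p below 0.05 and no pair of groups was separate. Casq1, a calcium-storing protein of the reticulum, measured 77.7, 45.1 and 27.1 in TAC and 34.4, 46.7 and 17.8 in sham (0.56 ± 0.37). Jph1, a junctophilin that ties the reticulum to the cell membrane, measured 16.2, 16.2 and 15.3 against 7.97, 13.4 and 16.9 (0.36 ± 0.21), or 0.94 within replicate 1 and 0.06 within replicates 2 and 3. Of sarcomere and Z-disc genes 6 were measured, and 1 lay above all sham libraries (4.39% over all loci). This was Trim55, a titin-associated ubiquitin ligase, at 132, 161 and 128 against 113, 111 and 120.1 (0.28 ± 0.25, limma adjusted p = 0.894). Fetal libraries, whose spread enters the standard error, measured 288, 577 and 301 for Trim55. Among 17 ion channels, 1 lay above all sham libraries (4.39% over all loci) and 1 below them (4.61%). Kcna4, a subunit of a transient outward potassium current, was the higher (4.05, 5.81 and 3.46 against 2.998, 2.79 and 2.82). Kcnq1, of the slow delayed rectifier, was the lower (44.5, 49.2 and 40.2 against 52.6, 52.1 and 53.4). Neither reached an unadjusted p of 0.05, nor did any of the 15 genes of adrenergic, angiotensin and G-protein signalling.

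In fatty acid oxidation, 23 of 45 listed genes were measured and most lay below sham by small amounts. The difference was negative for 21 of 23, with a median of -0.12. An unadjusted p below 0.05 was reached by 3, all lower (the share over all loci is 2.69%), and 4 lay below all sham libraries (4.61% over all loci). No member was called. Within replicate 1, 16 of 23 differences were negative (median -0.09) and within replicates 2 and 3, 20 of 23 (median -0.17). With 1 library left out at a time, 16 (without sham replicate 2) to 21 of 23 were negative, and with library totals made equal 21 were.

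Mlycd, malonyl-CoA decarboxylase, which relieves the block on fatty acid entry to mitochondria (rn4 chromosome 19, 49637118 to 49653015), measured 157, 171 and 162 in TAC and 203, 209 and 229 in sham. The highest TAC library was below the lowest sham library, and the difference was alike in both batches (-0.36 and -0.39; fitted -0.38 ± 0.13, limma adjusted p = 0.843). Acaa2, the mitochondrial thiolase of the last step of the cycle, measured 927, 997 and 1164 against 1168, 1693 and 1287 (-0.41 ± 0.17, adjusted p = 0.851), also without overlap. Aqp7, a glycerol channel, measured 172, 231 and 176 against 198, 302 and 347 (-0.52 ± 0.17, adjusted p = 0.82). Its groups overlapped, and the difference was smaller in replicate 1 (-0.20) than in replicates 2 and 3 (-0.68).

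Slc22a5, the carnitine importer, and Etfa, a subunit of the electron transfer flavoprotein, were the other 2 below all sham libraries. Slc22a5 measured 15.6, 13.5 and 16.5 in TAC and 18.1, 18.3 and 20.6 in sham (-0.31 ± 0.16). Etfa measured 775, 865 and 908 against 983, 1109.5 and 985 (-0.27 ± 0.15). Esrra, a nuclear receptor that drives genes of oxidative metabolism, stood at 70.0, 112 and 97.7 against 90.1, 115 and 139 (-0.30 ± 0.14). It was lower than sham in every pair of the same number (13.3% over all loci). The positive members were Fabp4 (0.22 ± 0.28), a fatty acid binding protein of endothelium and fat, and Cpt1a (0.11 ± 0.19), the liver form of the carnitine palmitoyltransferase.

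**Figure D2:**
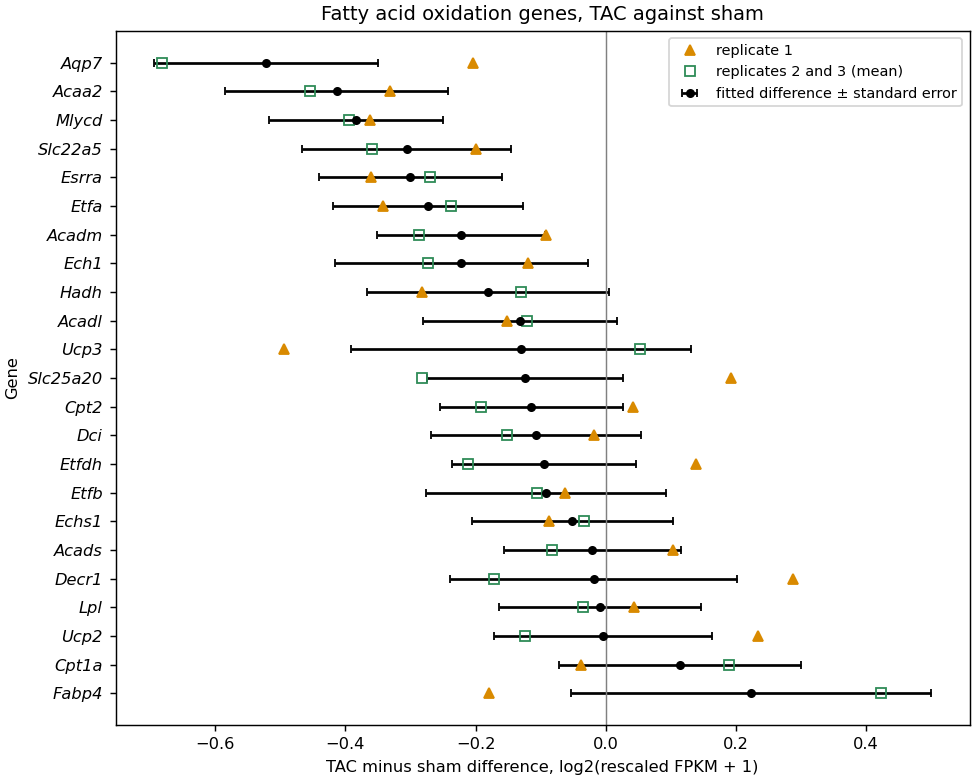
TAC minus sham difference on the log2(rescaled FPKM + 1) scale for the 23 measured genes of fatty acid oxidation, with the fitted value and its standard error (black), the difference within replicate 1 (triangle) and that of replicates 2 and 3 (square). Aqp7, Acaa2 and Mlycd lie farthest to the left at -0.52, -0.41 and -0.38, and only Cpt1a and Fabp4 have a fitted value above 0.

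In the other fuel pathways the directions were mixed. Of 45 genes of oxidative phosphorylation, 28 were positive, none had an unadjusted p below 0.05, and the median of 0.10 was -0.04 within replicate 1 and 0.17 within replicates 2 and 3. Without sham replicate 3, 15 were positive and the median was -0.12. Without sham replicate 2, 35 were positive, the median was 0.28 and 7 of 45 had an unadjusted p below 0.05. Over all loci that share was 6.85% in the same fit, both directions together. Ndufb5, a subunit of complex I, measured 685, 945 and 909 in TAC and 597, 772 and 421 in sham. The 14 genes of the tricarboxylic acid cycle had a median of -0.05, and none had an unadjusted p below 0.05. In glucose entry and glycolysis the median over 25 genes was -0.02 and 12 were positive. Eno2, the neuronal enolase, was the 1 member of 25 with an unadjusted p below 0.05 (2.92% over all loci, higher in TAC). It stood at 12.9, 10.9 and 10.9 in TAC and 7.43, 4.77 and 8.51 in sham (0.70 ± 0.19, limma adjusted p = 0.803), without overlap and alike in both batches. Slc2a3, a glucose transporter, was also above all sham libraries, at 8.38, 6.29 and 7.21 against 4.13, 4.17 and 6.07 (0.53 ± 0.26). Of the 25, 2 lay above all sham libraries (4.39% over all loci) and 1 below them (4.61%).

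Growth factors and their binding proteins were mostly positive: 19 of 27 lay above 0, the median was 0.15 (0.08 without TAC replicate 3), and 3 had an unadjusted p below 0.05, all higher (2.92% over all loci). No member lay above all sham libraries. Igfbp5, a binding protein for insulin-like growth factors, measured 119.9, 104 and 84.5 in TAC and 100.04, 58.7 and 58.9 in sham (0.53 ± 0.14, limma adjusted p = 0.802). Pdgfd, a platelet-derived growth factor, measured 8.06, 4.89 and 9.68 against 5.21, 4.21 and 3.78 (0.63 ± 0.25). Hbegf, a ligand of the EGF receptor, measured 9.56, 5.57 and 9.59 against 6.24, 5.04 and 3.35 (0.65 ± 0.28). In all 3, TAC was higher in each pair of the same number (12.8% over all loci) although the groups overlapped. Gdf15, a stress-induced cytokine, was the 1 member of 27 below all sham libraries (4.61% over all loci). It stood at 1.22, 1.10 and 0.485 against 1.77, 2.50 and 1.44 (-0.59 ± 0.32), a level near the filter.

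Matrix genes differed between the batches. The median over 25 measured genes was 0.03, but -0.19 within replicate 1, where 18 were negative, and 0.16 within replicates 2 and 3, where 17 were positive. With 1 library left out it ran from -0.11 (8 positive, without TAC replicate 3) to 0.13 (17 positive, without sham replicate 1). Dcn, decorin, a proteoglycan that binds collagen, measured 959, 866 and 841 in TAC and 808, 694 and 510.1 in sham (0.43 ± 0.16, limma adjusted p = 0.851). It was the 1 gene of the 25 whose groups did not overlap, against 4.39% of all loci above all sham libraries. Its difference was 3.66 when only the reference transcripts were counted. Timp1, an inhibitor of matrix proteases, measured 28.5, 18.4 and 32.0 against 22.7, 14.3 and 7.67 (0.86 ± 0.39), or 0.31 within replicate 1 and 1.13 within replicates 2 and 3; most of the latter came from replicate 3 (1.93). Loxl1, a crosslinker of elastin, measured 45.5, 26.6 and 33.8 against 67.6, 30.8 and 49.6 (-0.44 ± 0.21). Among 20 genes of the TGF-beta and fibrosis response, the median was 0.13 (-0.02 within replicate 1, 0.28 within replicates 2 and 3), and 0.03 without TAC replicate 3. Inhba, the activin A subunit, lay above all sham libraries at 3.49, 4.04 and 2.56 against 2.39, 1.19 and 2.21 (0.58 ± 0.25, adjusted p = 0.851). Ctgf, a matrix-inducing growth factor, stood at 75.0, 39.8 and 74.0 against 73.5, 31.0 and 31.1 (0.53 ± 0.26), or 0.03 within replicate 1 and 0.79 within replicates 2 and 3. Smad2, a signal carrier of TGF-beta, lay below all sham libraries at 19.2, 18.2 and 17.1 against 22.1, 21.4 and 22.3 (-0.26 ± 0.13). Of the 20, 1 lay above all sham libraries (4.39% over all loci) and 1 below them (4.61%).

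Immediate early and acute stress genes had no common direction: 15 of 36 were positive, with a median of -0.06. The 2 with an unadjusted p below 0.05 were both higher (2.92% over all loci). Ier3, an early response gene of cell survival, measured 30.5, 62.7 and 29.5 in TAC and 21.0, 25.02 and 18.2 in sham (0.83 ± 0.27, limma adjusted p = 0.82). Myc, a growth-promoting transcription factor, measured 3.80, 5.18 and 4.55 against 2.37, 1.76 and 3.21 (0.69 ± 0.21, adjusted p = 0.82). Neither group pair overlapped. Of the 36, 2 lay above all sham libraries (4.39% over all loci) and 1 below them (4.61%). Of 18 chaperones and genes of endoplasmic reticulum stress 14 were positive (median 0.11, and 0.04 without sham replicate 2), and 2 lay above all sham libraries (4.39% over all loci). Dnajb9, a co-chaperone of the reticulum, measured 32.5, 42.5 and 37.8 against 30.6, 30.2 and 22.8 (0.42 ± 0.18). Atf4, a transcription factor of the stress response, measured 165, 164 and 149.5 against 139, 139 and 119 (0.27 ± 0.16). Per2, a clock gene, stood at 6.74, 18.9 and 13.9 against 3.05, 11.7 and 8.14 (0.76 ± 0.22). It was higher in each pair of the same number (12.8% over all loci) while the groups overlapped.

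Of 35 inflammation and interferon genes, 17 were positive and the median was -0.01. Of the 35, 1 lay below all sham libraries (4.61% over all loci) and 1 above them (4.39%). The lower was RT1-Da, a class II histocompatibility chain of antigen-presenting cells. It measured 78.5, 64.3 and 60.4 in TAC and 119, 89.1 and 91.5 in sham (-0.55 ± 0.13, limma adjusted p = 0.77). Gbp1, an interferon-induced GTPase, measured 47.8, 30.3 and 34.8 against 51.0, 60.2 and 46.4 (-0.49 ± 0.20). Il18, a cytokine, measured 3.31, 1.66 and 4.39 against 1.98, 0.721 and 0.658 (0.95 ± 0.32). Cell cycle genes were low in both adult groups, summing to 125 to 146 in TAC and 114 to 151 in sham over 24 genes, against 1543 to 1959.9 in fetal ventricle. Of these 24, 8 were positive (median -0.16), but 13 within replicate 1 (median 0.04) and 8 within replicates 2 and 3 (median -0.18). Below all sham libraries lay 2 (4.61% over all loci) and above them 1 (4.39%). Cdc20, an activator of the mitotic ubiquitin ligase, was among the lower, at 1.82, 1.11 and 1.83 against 6.52, 2.97 and 4.16 (-1.06 ± 0.23, limma adjusted p = 0.723). Of 20 antioxidant genes, Mgst3, a glutathione transferase, measured 912, 438 and 654 against 780.2, 316 and 247 (0.70 ± 0.24), and Maob, a monoamine oxidase, 5.53, 4.82 and 5.00 against 9.73, 6.90 and 6.52 (-0.50 ± 0.20). No measured gene among 12 splicing regulators or 25 genes of atrophy, proteasome and autophagy had an unadjusted p below 0.05.

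Markers of other cell types overlapped between the groups in their summed levels. Macrophage and monocyte markers (13 of 23 measured) summed to 397 to 566 in TAC and 345 to 604 in sham. Of these, 10 were positive (median 0.10), but 5 within replicate 1 (median -0.08) and 5 without sham replicate 3 (median -0.06). Fibroblast markers (9 of 18) summed to 1555 to 1658 in TAC and 1102 to 1589.7 in sham. Dcn was the 1 member of 9 with an unadjusted p below 0.05 (2.92% over all loci, higher in TAC). Clec3b, a secreted lectin, also lay above all sham libraries, so that 2 of 9 did (4.39% over all loci). The fibroblast median was nonetheless 0.00258, with 5 of 9 positive and Lox, a collagen crosslinker, lowest at -0.40, and it ran from -0.07 without TAC replicate 3 to 0.17 without sham replicate 1. Endothelial markers (9 of 18) summed to 328 to 458 in TAC and 303 to 449 in sham. Pecam1, an adhesion molecule of endothelium, stood at 129.8, 148 and 73.7 in TAC and 143, 38.3 and 35.9 in sham (0.93 ± 0.54), the highest of the 9, and was lower in TAC within replicate 1 (-0.14). The endothelial median was 0.05 with 5 of 9 positive, -0.07 without sham replicate 2, and Vwf, von Willebrand factor, had the lowest difference (-0.35). Red cell RNA took opposite directions in the batches: Hba-a2, alpha globin, measured 10012, 5375 and 4935 in TAC and 4986, 12479 and 11138 in sham, higher in TAC in replicate 1 (1.01) and lower in replicates 2 and 3 (-1.19). Globin genes have close copies that may share reads. Lymphocyte markers (12 of 20 measured) also differed between the batches, with a median of 0.64 within replicate 1 and -0.21 within replicates 2 and 3, and summed to 76.6 to 119.8 in TAC and 73.7 to 109 in sham.

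**Figure D3:**
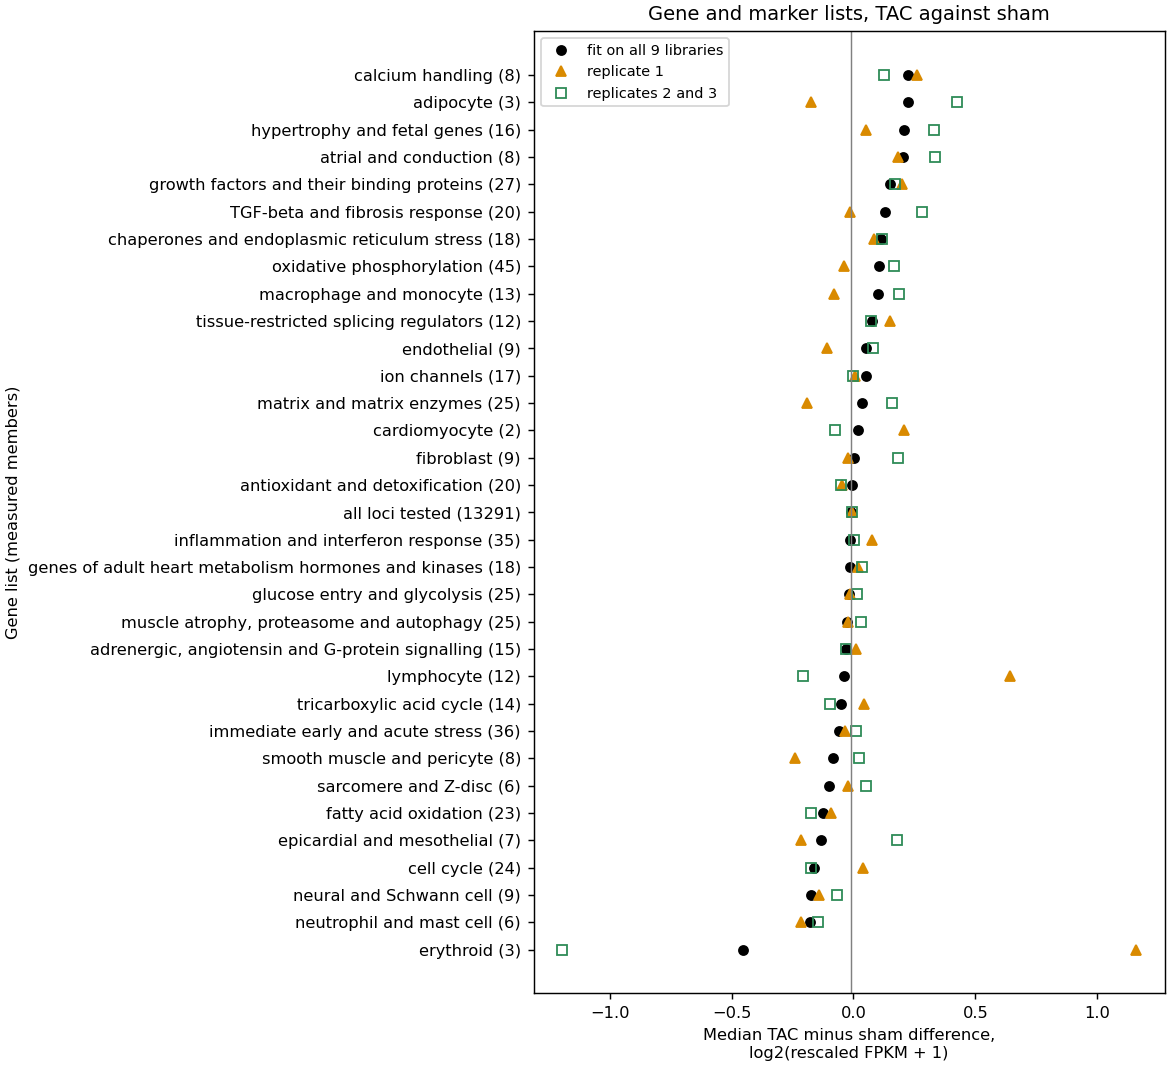
Median TAC minus sham difference, log2(rescaled FPKM + 1), over the measured members of each gene or marker list (number in parentheses), from the fit (black), within replicate 1 (triangle) and within replicates 2 and 3 (square), with the median of all 13291 loci as a grey line. Hypertrophy genes lie to the right at 0.21 and fatty acid oxidation to the left at -0.12, while the erythroid median is 1.16 in replicate 1 and -1.19 in replicates 2 and 3.

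The 3 called loci were short, and 2 of them have no symbol in the files. Also, 2 were no longer called once transcripts assembled over the locus were counted, an alternative chosen after seeing the data. This count took assembled transcripts of at least 200 nt that cover at least 25% of the locus. It left out those in genes that hold a reference transcript. ENSRNOT00000056539 (255 nt; rn4 chromosome 1, 91097621 to 91097875) measured 12.8, 13.9 and 19.2 in TAC, was listed at 0 in every sham library, and measured 10.3, 11.0 and 14.7 in fetal libraries (4.01 ± 0.21, limma adjusted p = 0.000746). In each sham library a longer transcript had been assembled over it as a gene of its own, at 15.3, 15.1 and 14.6. Counted with it, the difference was 0.01 (adjusted p = 0.998). RGD1559545 (rn4 chromosome 6, 93454596 to 93454929) was listed at 0 in every TAC library and measured 7.51, 16.9 and 15.4 in sham (-3.76 ± 0.35, adjusted p = 0.0183). Transcripts assembled over it in TAC measured 71.8, 19.1 and 17.03, and counted with them the difference turned to 1.13 (adjusted p = 0.867). The call at RGD1559545 was also lost with the replicate number as a block (limma adjusted p = 0.0579). It was lost as well without TAC replicate 2 or 3, any one sham library or fetal replicate 3 (limma adjusted p from 0.0583 to 0.16), with no batch covariate (0.184), with a pseudocount of 5 (0.182) and with any value above 0 accepted (0.0878).

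ENSRNOT00000023713 (588 nt, rn4 chromosome 5, 71384787 to 71385374, no symbol in the files) was the called locus to which this count added nothing. It measured 0, 0 and 0.195 in TAC and 22.8, 25.6 and 10.5 in sham, so that every TAC library was below every sham library. The difference was -4.19 ± 0.34 (limma adjusted p = 0.00969), -4.57 within replicate 1 and -4.00 within replicates 2 and 3. Fetal libraries were at 0.0711, 0 and 0. With overlapping transcripts counted at all loci the adjusted p was 0.0194. The call was lost with the TAC and sham libraries fitted alone (0.0623), with replicates 2 and 3 alone (0.0855), with a pseudocount of 0.1 (0.0613), without TAC replicate 3 (0.0672) and without sham replicate 1 (0.0532).

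**Figure D4:**
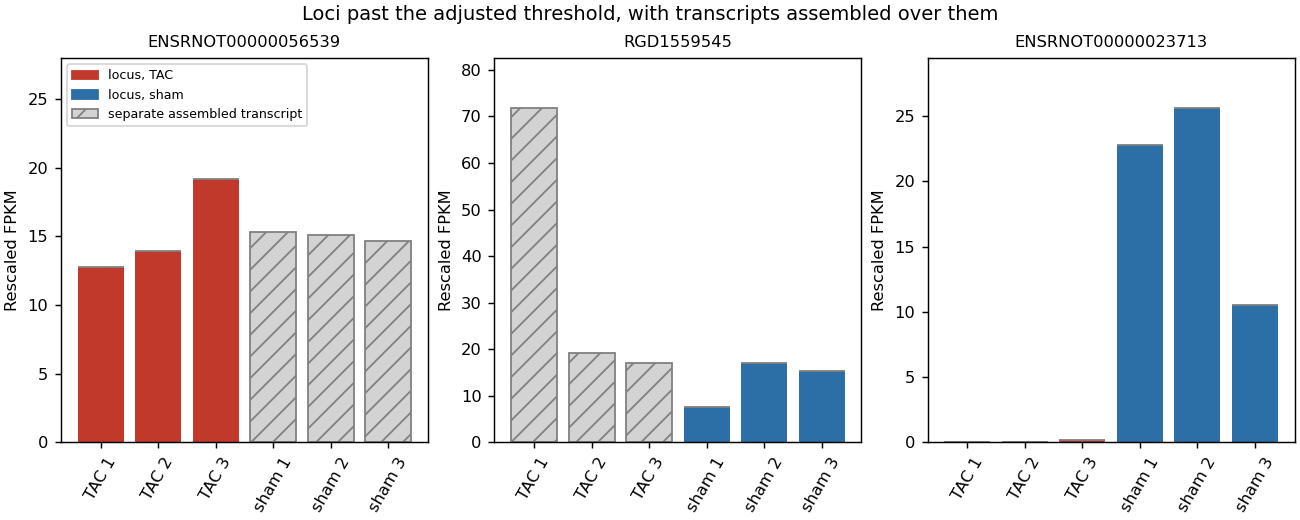
Rescaled FPKM of the 3 called loci in each TAC (red) and sham (blue) library, with transcripts assembled over the locus as separate genes in hatched grey. The hatched bars fill the libraries listed at 0 for ENSRNOT00000056539 and RGD1559545 but add nothing to ENSRNOT00000023713.

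Of the loci with a symbol and an unadjusted p below 0.05, those with larger differences were a mixed set, and the ones given here were not taken in order of size. Higher in TAC, with separate groups and the same sign in both batches, stood Sln and Myl7 (above), Agps, an enzyme of ether lipid synthesis (1.70 ± 0.64), and others. Among these was the locus that the files name SNORA25, which holds a transcript of at least 200 nt (1.38 ± 0.25). Whether its value is that of the RNA so named was not tested. Abcc3, an organic anion exporter, measured 6.26, 4.46 and 5.17 in TAC against 2.79, 0.959 and 1.03 in sham (1.34 ± 0.39). Atox1, a copper chaperone, measured 87.3, 98.6 and 71.5 against 46.2, 58.6 and 25.3 (1.04 ± 0.28). Igsf8, a partner of tetraspanins, measured 6.78, 6.21 and 5.93 against 2.76, 1.49 and 2.97 (1.13 ± 0.24). Their limma adjusted p-values were 0.805, 0.802 and 0.723. Mrpl43, a mitochondrial ribosomal protein, had 66.3, 86.9 and 112 against 46.2, 18.8 and 20.9 (1.68 ± 0.62), but 0.99 with transcripts assembled over the locus counted. LOC681355 was listed at 0 in every sham library (18.2, 8.76 and 3.97 in TAC, 3.29 ± 0.45), and its difference was 0.59 when such transcripts were counted.

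On the lower side, Cutc, a copper-binding protein, was listed at 0 in every TAC library and measured 12.9, 18.5 and 17.3 in sham (-4.10 ± 0.67, limma adjusted p = 0.414). It was also at 0 in fetal replicate 1 (0, 11.7 and 10.5), and without that library the adjusted p was 0.002. Creb3, a transcription factor tied to the endoplasmic reticulum, measured 0, 44.6 and 0 in TAC and 48.4, 55.0 and 65.8 in sham, and was listed at 0 in all fetal libraries; 2 TAC libraries were at 0 and the other was near sham, which gave -4.00 ± 1.24 (adjusted p = 0.82), and without TAC replicate 2 the adjusted p was 0.000428. LOC691255 measured 2.80, 12.2 and 9.67 against 15.2, 138 and 298 (-3.43 ± 0.66, adjusted p = 0.651), with sham libraries far apart. RGD1566292 measured 0.216, 0.0749 and 0.160 against 9.62, 3.44 and 3.17 (-2.34 ± 0.30, adjusted p = 0.142). Cryl1, lambda-crystallin, a dehydrogenase, measured 91.1, 123 and 28.2 against 153, 234 and 175 (-1.42 ± 0.48, adjusted p = 0.833). Rpl28, a ribosomal protein with many processed copies, measured 57.8, 29.1 and 27.0 against 168, 62.8 and 92.7 (-1.45 ± 0.49), and turned to 2.39 when only reference transcripts were counted.

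The title of the series names splice variants, so single reference transcripts were compared as well. Of 12229 tested, 46 were called (0.376%), 31 higher and 15 lower in TAC. In 44 of the 46 the transcript was listed at 0 in all libraries of a group, 30 in sham and 14 in TAC. Genes with a reference transcript held 5123, 7644 and 9310 assembled transcripts above 0 in TAC replicates 1 to 3. In sham replicates 1 to 3, which are deeper, they held 7142, 9456 and 8831. The part of library depth in these calls was not tested. The locus that held the transcript differed by less than 1 in 41 of the 46, and 2 of the loci were themselves called. With the replicate number as a block, 11 were called (6 higher and 5 lower), all of them among the 46. With the 6 adult libraries fitted alone 1 was called, and with any value above 0 accepted 9 were. Leaving out 1 library gave 25 calls without TAC replicate 2, 16, 26 and 19 without sham replicates 1 to 3, and 16, 16 and 17 without fetal replicates 1 to 3.

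Arhgap5, a GTPase-activating protein, shows the pattern. Its transcript ENSRNOT00000006241 measured 23.0, 21.5 and 20.4 in TAC and 0 in all 3 sham libraries (4.50 ± 0.31, limma adjusted p = 0.00409), while the locus measured 23.0, 21.5 and 20.4 in TAC and 24.1, 22.1 and 20.8 in sham. In the sham libraries the value of the locus (80.4% of it in sham replicate 2) lay in a transcript of 5460 to 5502 nt assembled from the reads, which spans more of the genome than the extended reference transcript of 4892 to 4924 nt in TAC. Bmp6, a bone morphogenetic protein, has 1 reference transcript, ENSRNOT00000018359, at 36.2, 16.3 and 16.4 in TAC and 0 in sham (4.48 ± 0.38, adjusted p = 0.00963). The sham libraries held an assembled transcript of 3254 to 3279 nt in its place, at 31.4, 31.4 and 23.4, against 1304 to 1522 nt in TAC. The Bmp6 locus as a whole differed by -0.40.

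ENSRNOT00000063910, 1 of 5 reference transcripts of its locus, was the lowest called, at 0 in all TAC libraries and 139.6, 232 and 246 in sham (-7.65 ± 0.35, limma adjusted p = 0.0012), while the locus differed by 0.12. In TAC the value of the locus lay in assembled transcripts. In TAC replicate 2, 26.3% of it lay in a transcript of 2159 nt from 4508144 to 4520795, against 4508144 to 4520794 for the reference transcript of 1978 nt. The assembled transcripts of TAC replicates 1 and 3 started at 4512236 or later. Dhx38, a splicing helicase, had its reference transcript of 4463 nt at 10.1, 8.09 and 10.1 in TAC and 0 in sham, where an assembled transcript of 4460 nt with the same ends held 68.0%, 55.7% and 100% of the locus. The rest lay in assembled transcripts of 3992 nt in sham replicate 1 and 4193 nt in sham replicate 2, each with 1 other end. Ctps, which makes CTP, was the called transcript above 0 in every library of both groups: 65.1, 47.2 and 30.7 in TAC and 18.7, 13.2 and 13.1 in sham (1.56 ± 0.22, adjusted p = 0.0468), with a locus difference of -0.11. The Ctps transcript was called in only 3 of 22 settings, the main fit among them, with a limma adjusted p up to 0.771. Its call was lost, among others, with the replicate number as a block (limma adjusted p = 0.129) and without any one library other than TAC replicate 3 (0.105 to 0.175). The Dhx38 transcript was called in 16 of 21 settings, and the losses included the fit without sham replicate 1 (limma adjusted p = 0.0598).

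**Figure D5:**
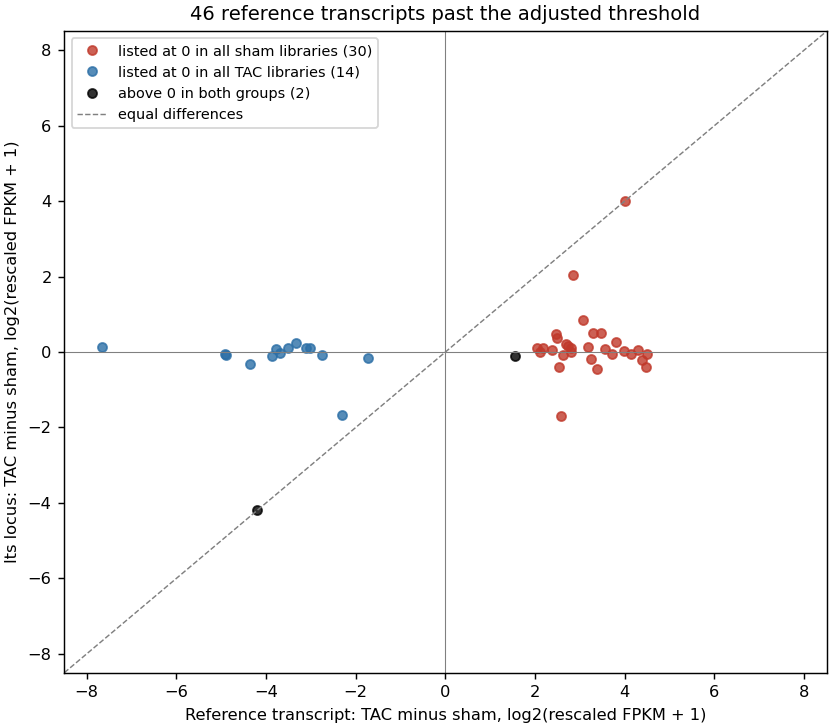
TAC minus sham difference of the 46 called reference transcripts (x axis) against that of their locus (y axis), both log2(rescaled FPKM + 1), coloured by the group in which the transcript was listed at 0. Most points lie along the horizontal line of no locus difference; 41 of 46 loci differ by less than 1.

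How much of its locus each transcript held was tested for 10524 transcripts, and 5 were called (0.0475%), 4 higher and 1 lower in TAC. They were the transcripts of Arhgap5, Bmp6 and Dhx38 above, ENSRNOT00000063910, and ENSRNOT00000033719 of Trex1, a DNA exonuclease. Over all 10524 shares the median difference was itself above 0, at 0.19 (higher in TAC), and was 0.006 without TAC replicate 1. The Arhgap5, Bmp6 and Dhx38 transcripts each held 100% of their locus in every TAC library and 0 in every sham library. In every fetal library the Bmp6 and Trex1 transcripts held 100% and those of Arhgap5 and Dhx38 0. The Trex1 transcript held 100% in each TAC library and 0, 0 and 18.2% in sham. In sham replicates 1 and 2 an assembled transcript of 996 and 990 nt held 100% of the locus. In sham replicate 3 an assembled transcript of 1000 nt stood beside the reference of 951 nt. The reference transcript was itself extended in TAC replicates 2 and 3, to 976 and 960 nt. With the replicate number as a block 3 of the 5 were called, Dhx38 (limma adjusted p = 0.0866) and Trex1 (0.0611) being lost. With the 6 adult libraries fitted alone limma called 0 shares, against 552 at an unadjusted p below 0.05. Without TAC replicate 1 or 2, sham replicate 2 or 3, or fetal replicate 2, limma likewise called 0 shares (621 to 773 at an unadjusted p below 0.05), and without TAC replicate 3 it called 1, which was none of these 5.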

How the data were processed

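Libraries were made with a TruSeq RNA kit, which does not mark strand, and sequenced on a GAIIx, per the labels' protocols. TopHat 1.3.1, Cufflinks 1.0.3, Cuffdiff (with no version) and the build rn4 are named in the submitters' processing notes; the deposited file of each library holds its own assembled transcripts. The deposited FPKM values of the authors carry a further constant in each library (medians above 0 from 2733810 in TAC replicate 2 to 45986300 in fetal replicate 1), so they were rescaled. Assembled genes were joined through 39492 reference transcripts into 29327 loci (transcripts sharing a gene in at least 5 libraries), and 24660 of at least 200 nt were kept, 16569 with a symbol. The value of a locus sums its reference transcripts and those assembled in the same gene. Libraries were scaled by the median of ratios over 13167 loci above 0 in all 9, to a mean total of 1e+06. Features of at least 1 in at least 3 of the 6 adult libraries were tested on log2(value + 1), which understates the fold of low genes, with limma 3.58.1 (R 4.3.3; trended eBayes, with 5 degrees of freedom left) on all 9 libraries, by group and library batch. For shares the tested value was log2 of (transcript + 1) over (other transcripts of its locus + 1), where the locus averaged 3 or more and the share 5% to 95%. Where all libraries of a group are listed at 0 they show no spread, and the spread estimated for the feature is smaller. Overlapping and antisense genes cannot be told apart without strand.

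Replicate numbers in the titles were checked for pairing by correlations after removal of the group means. TAC and sham libraries of the same number correlated at 0.51, 0.27 and 0.14 for numbers 1 to 3, all above the 0.1 set for pairing. Sham replicate 2 with TAC replicate 3 gave 0.29, and sham replicate 3 with TAC replicate 2 gave 0.13. Replicate 1 of either group with replicates 2 and 3 of the other gave -0.41 to -0.20. The check thus set replicate 1 apart but did not show pairing by number within replicates 2 and 3. The block on the number was run as an alternative. The fit was tested on simulated data. Fragment numbers are estimates from the deposited confidence bounds. Named are all called loci and shares and up to 30 called transcripts; symbol loci with the largest differences (up to 15 each way, unadjusted p below 0.05, groups apart, same sign in both batches, mean of at least 5); every measured hypertrophy gene; and up to 4 members of each other list by smallest p. Clec3b, Ctps, Fabp4, Cpt1a, Etfa, Slc22a5 and Kcnq1 are among those named after their values were seen. The members and lists were chosen with earlier results of these data known.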

Additional observations from a re-analysis of the deposited data

How the results depend on the processing

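TAC libraries held fewer fragments than sham, which limits low loci: a value of 0 in TAC is the weaker evidence of absence. The median over all loci was -0.07 with equal library totals and -1.16 with values as deposited. With values as deposited, 8708 loci, 1 transcript and 0 shares were called (267 shares at an unadjusted p below 0.05); of 34 named loci with a positive difference 28 were then negative, 20 of them without a call (Nppa at -0.51, Nppb at -0.65, Cryab at -1.03, Dcn at -1.01 and Igfbp5 at -0.87 among them) and 8 with one: Rcan1 (-1.42), Flnc (-1.16), Pdlim3 (-1.17), Acta1 (-1.37), Vim (-1.33), Ankrd1 (-1.32), Myl9 (-1.29) and Lum (-1.11), by the construction of that alternative, which keeps the constant of each library. With transcripts assembled over a locus counted, an alternative chosen after seeing the data, 1 locus was called and RGD1559545 reversed to 1.13.

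The other alternatives moved the counts as follows, and the cause was not tested. With the replicate number as a block in place of the batch, 2 loci, 11 transcripts and 3 shares were called. No other call described for a list or a locus changed with the block, apart from RGD1559545 (limma adjusted p = 0.0579). With the TAC and sham libraries alone the counts were 5 loci, 1 transcript and 0 shares (552 shares at an unadjusted p below 0.05). With replicates 2 and 3 alone they were 13 loci, 10 transcripts and 0 shares (876 unadjusted). With reference transcripts only, 35 loci were called. Pseudocounts of 0.1 and 5 gave 84 and 26 transcripts, and 0.1 gave 3 shares. Accepting any value above 0 gave 9 transcripts and 28 shares, a filter of 5 gave 10 transcripts, and weighting libraries gave 3 shares. With 1 library left out at a time, 1 to 5 loci, 16 to 43 transcripts and 0 to 5 shares were called. The lowest locus count was without TAC replicate 3, the lowest transcript counts (16) were without sham replicate 1, fetal replicate 1 or fetal replicate 2, and no share was called without TAC replicate 1 or 2, sham replicate 2 or 3, or fetal replicate 2.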
